A study of Mus musculus with 12 samples.

Results

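Enteroendocrine hormones and granins were followed here as 10 genes chosen by symbol, of the 46078 genes that the count files list. They are the granins Chga and Chgb, the transcription factor Neurod1, the serotonin-producing enzyme Tph1, and the hormone genes Gcg, Gip, Sct, Cck, Pyy and Nts. All 10 held enough counts to be tested, among 15823 genes in all. At the highest dose of TCDD, 6 of the 10 (Chga, Chgb, Tph1, Gcg, Sct and Cck) were called higher than in vehicle, by 1.57 to 2.13-fold. Of all genes tested, 3.08% were called higher at that dose. Among protein-coding genes with under 700 nucleotides of exon, the class of Sct, Gip and Pyy, 46.0% were. The calls of Chga and Tph1 were each lost in some alternative fits. Gip, the member with the highest level per length, was not called.

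The epithelium of the proximal ileum was scraped from male C57BL/6 mice and its RNA sequenced. The mice were gavaged with sesame oil vehicle or with 3, 10 or 30 µg/kg TCDD, a dioxin and ligand of the aryl hydrocarbon receptor (AhR), every 4 days for 28 days, with 7 gavages in all. They were 28 days old at the start and 56 days old at the end, and each of the 4 groups had 3 biological replicates. Each library holds the RNA of all cells in a scraping, and no cells were sorted.

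Enteroendocrine cells are hormone-secreting cells scattered singly through the gut epithelium. They arise from crypt progenitors, sense nutrients at the lumen and release peptides or serotonin from dense-core granules at their base. Granins are acidic proteins that pack into those granules, so their transcripts mark most subtypes. The hormones divide the cells further: Gip is known from K cells of the upper small intestine, Cck from I cells, Sct from S cells and late villus cells, Gcg, Pyy and Nts from L and N cells of the distal gut, and Tph1 from the serotonin-producing enterochromaffin cells.

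The member genes lay on chromosomes 12 (Chga), 2 (Chgb, Neurod1 and Gcg), 7 (Tph1 and Sct), 11 (Gip and Pyy), 9 (Cck) and 10 (Nts) of GRCm38. AhR with its partner ARNT binds the dioxin response element, whose core is GCGTG. RefSeq promoter windows of build GRCm38.p6, from 250 bases before a start site to 50 bases into the transcript, were searched on both strands for that core and for TGACG, the core of the cAMP response element (CRE). A core was found in any window of 3 of 10 members (Chga, Neurod1 and Tph1). Of all 32841 promoter windows, counted singly, 32.4% held one. Tph1 and Pyy had 2 windows each, so shares of members and of windows differ in unit, here and below. Chga held 4 cores, the first starting 18 bases before the RefSeq start site and the last 2 bases before it. The cores starting 12 and 8 bases before it share 1 base. The letters TATAAA, those of a TATA box, begin 5 bases after that site, and GENCODE starts the gene at base 102554969, further into the window. The distances therefore depend on the annotation used. Windows with 3 or more cores made up 3.92% of all windows. Chgb, Gcg, Sct and Cck, which were also called at 30 µg/kg, held no core in this window, nor did Gip, Pyy and Nts. The CRE core was found for 5 of 10 members (Chga, Chgb, Tph1, Cck and Nts) and in 20.8% of all windows. A match in these letters is a description and not a binding site. The windows with a core are shown first (for Tph1, the window of the 2 that held one), then those of the 2 hormones with the largest changes at 30 µg/kg, which held none. Capitals mark the GCGTG core or its complement CACGC.
Chga chr12:102554691-102554990, plus strand: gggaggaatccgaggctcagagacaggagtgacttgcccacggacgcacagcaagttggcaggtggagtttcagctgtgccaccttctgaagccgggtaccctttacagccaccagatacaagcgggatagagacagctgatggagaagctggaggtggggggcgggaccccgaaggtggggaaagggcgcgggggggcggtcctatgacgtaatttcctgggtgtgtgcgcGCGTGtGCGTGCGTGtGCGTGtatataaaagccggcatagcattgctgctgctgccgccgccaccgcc
Neurod1 chr2:79456587-79456886, minus strand: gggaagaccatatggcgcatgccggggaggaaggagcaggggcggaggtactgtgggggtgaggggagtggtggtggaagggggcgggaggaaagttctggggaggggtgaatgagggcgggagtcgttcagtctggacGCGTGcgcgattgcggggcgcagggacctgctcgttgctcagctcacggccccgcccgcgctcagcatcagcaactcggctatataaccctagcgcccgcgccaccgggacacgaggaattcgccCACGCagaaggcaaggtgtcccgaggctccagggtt
Tph1 chr7:46672488-46672787, minus strand: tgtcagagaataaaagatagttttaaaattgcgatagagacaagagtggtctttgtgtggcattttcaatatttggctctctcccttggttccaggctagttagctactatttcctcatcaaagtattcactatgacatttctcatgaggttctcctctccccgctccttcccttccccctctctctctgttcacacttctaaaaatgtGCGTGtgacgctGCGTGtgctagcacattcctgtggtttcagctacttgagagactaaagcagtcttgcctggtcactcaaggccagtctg
Cck chr9:121495645-121495944, minus strand: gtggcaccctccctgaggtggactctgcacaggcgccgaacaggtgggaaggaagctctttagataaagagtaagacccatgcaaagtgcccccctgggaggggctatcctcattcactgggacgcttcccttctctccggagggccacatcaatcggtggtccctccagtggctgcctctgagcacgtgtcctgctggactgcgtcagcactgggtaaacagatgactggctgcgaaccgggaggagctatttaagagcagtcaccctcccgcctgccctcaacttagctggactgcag
Sct chr7:141279084-141279383, minus strand: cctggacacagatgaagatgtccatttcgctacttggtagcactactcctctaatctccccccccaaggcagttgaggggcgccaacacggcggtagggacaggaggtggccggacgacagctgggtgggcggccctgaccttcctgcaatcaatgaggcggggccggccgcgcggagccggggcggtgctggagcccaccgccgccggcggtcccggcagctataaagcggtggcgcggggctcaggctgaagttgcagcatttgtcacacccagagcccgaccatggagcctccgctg

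Expression is given in CPM, the count of a gene scaled to the library's total by edgeR with TMM factors, and log2 changes are from the same fit. Gene totals were 11695887 to 22180274 counts per library. The files and labels were checked with Cyp1a1, a classic AhR target gene, which lay at 19.0 to 27.5 CPM in vehicle, 22.2 to 141 at 3 µg/kg, 872 to 1333 at 10 µg/kg and 2608 to 3251 at 30 µg/kg. Epithelial markers were abundant in all libraries, with a summed level of the 7 genes of that list between 9023 and 12350 CPM. In contrast, the 3 libraries of 10 µg/kg stood apart in some colon markers and not in all. That list has 7 genes, 5 of them tested. Against vehicle, 10 µg/kg gave 2 calls among these, both upward, and 3 were not called. The list summed to 296.5 to 356.3 CPM in vehicle and 381.0 to 409.7 CPM at 10 µg/kg. At 3 µg/kg it summed to 321.0 to 401.2 CPM, which overlaps both, and at 30 µg/kg to 270.0 to 308.3 CPM. Car1, a carbonic anhydrase of colonocytes, had 0 counts in the 9 libraries of the other groups and 714 to 857 counts in those of 10 µg/kg. Aqp8, a water channel, had 65 to 79 counts at 10 µg/kg and at most 15 elsewhere, while Insl5, the hormone of colonic L cells, had 2 to 5 counts at 10 µg/kg and none elsewhere. Chga, Gcg and Pyy are also expressed in the colon, so comparisons with 10 µg/kg are given with this limit, and those without it are repeated with these libraries left out.

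Levels of different genes were compared per kilobase of exon (RPKM). In vehicle, Gip ranked first at 49.8 ± 7.8 RPKM (SD, n = 3). Chgb (22.6 ± 1.3) and Sct (21.5 ± 2.1) followed with overlapping libraries, then Chga (15.2 ± 0.77) and Nts (14.6 ± 2.4), which overlapped as well. Cck lay at 5.02 ± 0.29 RPKM and Gcg at 3.91 ± 0.19, and the libraries of Pyy (3.74 ± 1.12) overlapped both. Neurod1 at 1.33 ± 0.21 and Tph1 at 0.834 ± 0.108 RPKM were the lowest and did not overlap. At 30 µg/kg Gip stayed first at 52.9 ± 7.0 RPKM, and Sct came next at 41.3 ± 3.7, with libraries that overlapped those of Chgb (38.1 ± 3.0). Gcg (6.51 ± 0.79) and Pyy (4.79 ± 1.33) overlapped at that dose, and Cck (10.7 ± 0.84) lay above both.

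**Figure D1:**
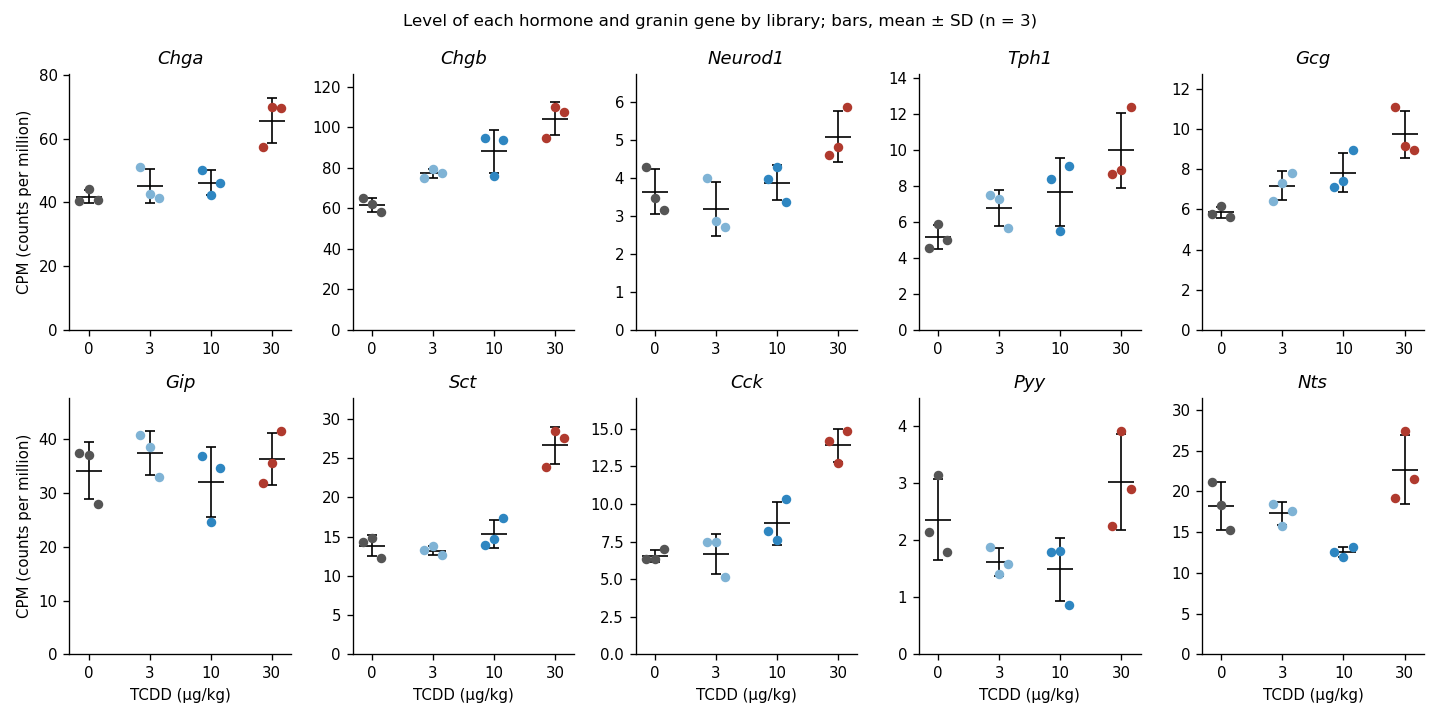
Level of each of the 10 genes in CPM (vertical axes, each from 0) by dose of TCDD in µg/kg (horizontal axes). Points are libraries, and black lines and bars are the mean ± SD of 3 libraries. The libraries of 30 µg/kg lie above all vehicle libraries for Chga, Chgb, Neurod1, Tph1, Gcg, Sct and Cck, while those of Gip, Pyy and Nts overlap vehicle.

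Granins are the broadest markers of the lineage, and both rose at 30 µg/kg. Chga was at 40.5, 44.3 and 40.7 CPM in vehicle and at 51.2, 42.6 and 41.4 CPM at 3 µg/kg. It reached 50.2, 42.3 and 46.1 CPM at 10 µg/kg and 57.6, 69.9 and 69.6 CPM at 30 µg/kg. The 30 µg/kg libraries lay above every other library, while those of 3 and 10 µg/kg overlapped vehicle. The highest dose gave a log2 change of 0.65 ± 0.11 (SE). The quasi-likelihood test of edgeR gave it an adjusted p of 0.0039 (Benjamini-Hochberg, over all genes tested). That is 1.57-fold, close to the 1.5-fold size set for a call, and 0.58 once a trend with exon length and GC content was removed, which is below that size at an adjusted p of 0.0076 (edgeR). Against 10 µg/kg the log2 change was 0.51 ± 0.11, with an adjusted p of 0.023 (edgeR). It passed the p threshold, as 4.69% of all genes did, and was below the size for a call.

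Chgb rose over the dose range. It lay at 65.2, 62.3 and 58.3 CPM in vehicle, at 74.9, 79.4 and 77.7 CPM at 3 µg/kg, at 95.1, 75.9 and 93.7 CPM at 10 µg/kg, and at 94.9, 110.1 and 107.8 CPM at 30 µg/kg. Vehicle libraries did not overlap those of any dose. The log2 changes of the 3 doses, in rising order, were 0.32 ± 0.10, 0.51 ± 0.10 and 0.75 ± 0.10, with edgeR adjusted p of 0.272, 0.039 and 0.00076. At 10 µg/kg the change passed the p threshold, as 0.714% of all genes did, and was 1.43-fold, below the size for a call, and it was called at 0.61 (adjusted p = 0.021, edgeR) when replicate 2 of that dose was left out. The trend over dose ranks was 0.73 ± 0.10 from vehicle to the highest dose, with an adjusted p of 0.00075 (edgeR).

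Neurod1, a basic helix-loop-helix factor of enteroendocrine differentiation, was low. Its levels were 4.29, 3.47 and 3.15 CPM in vehicle, 4.00, 2.86 and 2.70 CPM at 3 µg/kg, 3.96, 4.28 and 3.37 CPM at 10 µg/kg, and 4.60, 4.80 and 5.86 CPM at 30 µg/kg. The 30 µg/kg libraries were the highest of the 12, but the log2 change of 0.49 ± 0.20 did not pass the test (adjusted p = 0.189, edgeR). The span of the Neurod1 gene overlaps those of the antisense gene Gm26755 and the same-strand gene Cerkl. Overlap of exons was not examined and the strand setting of the counting is not stated. Whether reads of these genes entered its counts is therefore not known. For the other 9 members the annotation lists no overlapping gene.

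Tph1 makes the rate-limiting enzyme of serotonin synthesis outside the brain. It lay at 4.57, 5.88 and 4.99 CPM in vehicle and at 7.47, 7.24 and 5.64 CPM at 3 µg/kg. At 10 µg/kg it was at 8.35, 5.51 and 9.13 CPM and at 30 µg/kg at 8.68, 8.89 and 12.4 CPM. One library of each lower dose fell within the vehicle range, and all 3 of 30 µg/kg lay above it. The log2 change of the highest dose was 0.96 ± 0.21 with an adjusted p of 0.0198 (edgeR). The call was lost when vehicle replicate 1, vehicle replicate 3 or 30 µg/kg replicate 3 was left out (adjusted p of 0.055, 0.067 and 0.089, edgeR), with log2 changes of 0.89, 0.94 and 0.77.

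Gcg encodes the precursor of the glucagon-like peptides of L cells. It was at 5.75, 6.16 and 5.62 CPM in vehicle, 6.42, 7.30 and 7.81 CPM at 3 µg/kg, 7.13, 7.40 and 8.94 CPM at 10 µg/kg, and 11.1, 9.15 and 8.93 CPM at 30 µg/kg. As for Chgb, no vehicle library overlapped any dose. The log2 changes of the lower doses were 0.30 ± 0.15 and 0.42 ± 0.15, neither of which passed the test (adjusted p of 0.473 and 0.201, edgeR), and that of 30 µg/kg was 0.74 ± 0.15 (adjusted p = 0.0101, edgeR). The trend over dose ranks was 0.70 ± 0.14 (adjusted p = 0.0096, edgeR).

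Gip, the incretin of K cells, showed no change that passed the test at any dose. Its levels were 37.4, 37.1 and 28.0 CPM in vehicle, 40.8, 38.6 and 32.9 CPM at 3 µg/kg, 36.9, 24.6 and 34.6 CPM at 10 µg/kg, and 31.9, 35.6 and 41.5 CPM at 30 µg/kg. All 4 groups overlapped. The log2 change of the highest dose was 0.09 ± 0.16 (adjusted p = 0.805, edgeR), and its sign turned to -0.081 with the length and GC trend removed. The ratio of Gip to Gcg in CPM ran from 4.98 to 6.50 in vehicle and from 2.88 to 4.65 at 30 µg/kg, with no overlap.

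Secretin, from Sct, stimulates bicarbonate secretion by the pancreas and the biliary tree. Sct was at 14.4, 14.9 and 12.3 CPM in vehicle, 13.3, 13.8 and 12.6 CPM at 3 µg/kg and 14.0, 14.7 and 17.4 CPM at 10 µg/kg. Both doses overlapped vehicle, and they did not overlap each other. It stood at 24.0, 28.4 and 27.5 CPM at 30 µg/kg, above the other 9 libraries. The log2 change was 0.94 ± 0.12 against vehicle (adjusted p = 0.00047, edgeR) and 0.79 ± 0.12 against 10 µg/kg (adjusted p = 0.0025, edgeR). The second of these was not called with the length and GC trend removed. The ratio of Sct to Chga in CPM was 0.396 to 0.416 at 30 µg/kg and 0.260 to 0.378 in the other libraries.

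Cholecystokinin, from Cck, releases bile and pancreatic enzymes. Cck was at 6.32, 6.34 and 6.99 CPM in vehicle, 7.47, 7.48 and 5.17 CPM at 3 µg/kg, 8.21, 7.62 and 10.4 CPM at 10 µg/kg, and 14.2, 12.7 and 14.8 CPM at 30 µg/kg. Libraries of 10 µg/kg lay between those of vehicle and of 30 µg/kg without overlap. The log2 change of 1.09 ± 0.17 at 30 µg/kg was the largest of the 10 members (2.13-fold, adjusted p = 0.0019, edgeR), and the trend over dose ranks was 1.10 ± 0.18 (adjusted p = 0.0032, edgeR). Against 10 µg/kg it was 0.67 ± 0.17 (adjusted p = 0.038, edgeR), a call that was lost when any one of 5 of the 6 libraries was left out (adjusted p up to 0.151), and kept without 10 µg/kg replicate 3. It was also lost with the index tag of each library as a covariate (0.67, adjusted p = 0.080, edgeR).

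Pyy and Nts encode hormones of the distal gut that slow transit and feeding. Pyy was the member with the fewest counts (14 to 68 per library) and lay at 2.14, 3.15 and 1.79 CPM in vehicle, 1.89, 1.40 and 1.59 CPM at 3 µg/kg, 1.80, 1.81 and 0.857 CPM at 10 µg/kg, and 2.25, 3.91 and 2.90 CPM at 30 µg/kg. The 30 µg/kg libraries did not overlap those of 10 µg/kg, and the log2 change of 1.01 ± 0.34 did not pass the test (adjusted p = 0.111, edgeR). Nts was at 21.2, 18.3 and 15.2 CPM in vehicle, 18.5, 15.8 and 17.6 CPM at 3 µg/kg, 12.6, 12.0 and 13.2 CPM at 10 µg/kg, and 19.2, 27.4 and 21.5 CPM at 30 µg/kg. Every library of 10 µg/kg lay below all others, and the log2 change from vehicle was -0.53 ± 0.15 (adjusted p = 0.130, edgeR). From 10 to 30 µg/kg Nts rose by 0.84 ± 0.15 (adjusted p = 0.0085, edgeR), and against vehicle its change of 0.31 ± 0.15 at 30 µg/kg did not pass (adjusted p = 0.242, edgeR). The contrast of 30 with 10 µg/kg rests on the libraries that stood apart in some colon markers, and their part in it was not tested.

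**Figure D2:**
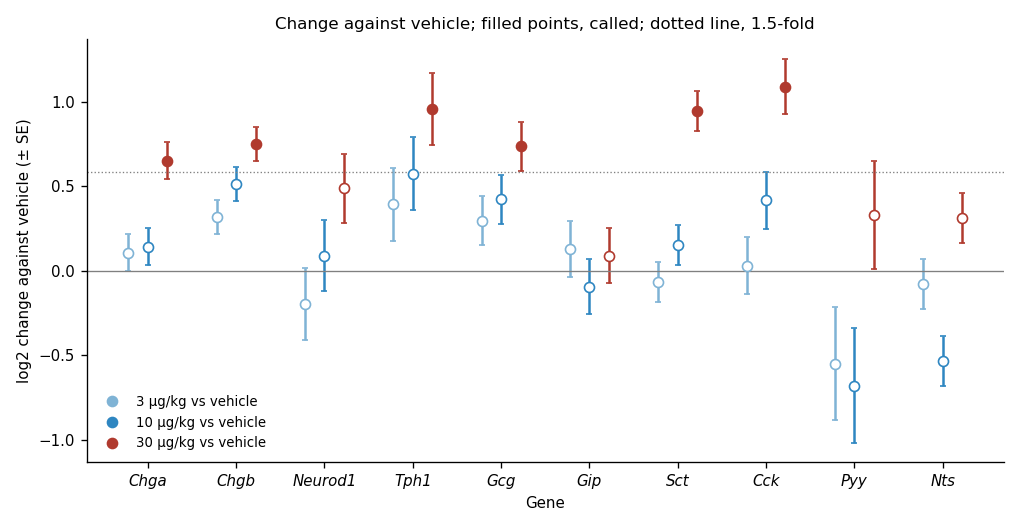
Log2 change of each gene against vehicle (vertical axis) at 3, 10 and 30 µg/kg TCDD, with standard errors as bars. Filled points were called by edgeR and the dotted line marks 1.5-fold. The 6 filled points, for Chga, Chgb, Tph1, Gcg, Sct and Cck, are all at 30 µg/kg, and the points of Gip stay near 0.

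Calls needed an adjusted p under 0.05 together with a 1.5-fold change. By that rule edgeR called 0 of 10 members at 3 µg/kg, where 0.228% of all genes were called, and 1 member (Chgb) had an unadjusted p under 0.05, as 11.4% of all genes did. It called 0 of 10 at 10 µg/kg, where 0.613% of all genes were called and 5 members had an unadjusted p under 0.05, as 15.9% of all genes did. DESeq2 and limma-voom also called 0 members at both doses. At 30 µg/kg, 6 of 10 members were called, all higher, where 3.97% of all genes were called and 3.08% were called higher. The trend over dose ranks called the same 6 genes, beside 3.29% of all genes (2.53% higher), and also called them with the 10 µg/kg libraries left out. The contrast of 30 with 10 µg/kg called Sct, Cck and Nts higher, beside 2.77% of all genes (2.17% higher). No member was called lower in any contrast. The 3 contrasts with vehicle share the vehicle libraries, so they are not independent of each other.

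The median log2 changes of the members were 0.07, 0.15 and 0.69 for the 3 doses in rising order, and that of all genes tested was between -0.02 and 0.01. At 30 µg/kg the libraries of 7 members lay above vehicle without overlap, and 14.2% of all genes did so. At 10 µg/kg, 3 members (Chgb, Gcg and Cck) lay above vehicle (11.9% of all genes) and Nts lay below it (11.0%). At 3 µg/kg, Chgb and Gcg lay above it (8.58%) and 0 members below it (6.84%). Between 30 and 10 µg/kg, 6 members did not overlap, all higher at 30 µg/kg (14.7%). The summed CPM of the 10 genes was 177 to 202 in vehicle, 205 to 226 at 3 µg/kg, 196 to 238 at 10 µg/kg and 268 to 313 at 30 µg/kg. In such bulk samples, more cells of a type and more RNA per cell cannot be told apart.

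Transcript length moved with the change at 30 µg/kg over all protein-coding genes. The 137 genes with under 700 nucleotides of exon had a median log2 change of 0.94, and 46.0% of them were called higher. For the 556 genes of 1000 to 1500 nucleotides these values were 0.21 and 12.8%, for the 2797 genes of 1500 to 3000 nucleotides 0.08 and 4.18%, and for the 4309 genes of at least 6000 nucleotides -0.06 and 0.998%. Sct, with 645 nucleotides, lay at the median of its length class, whereas Gip (687) and Pyy (631) lay below that median. Cck (1305), Gcg (1494), Chgb (2740), Chga (2756) and Tph1 (6172) lay above the medians of theirs. So did Neurod1 (2729) and Nts (1248), which were not called at 30 µg/kg. With a smooth trend over length and GC content removed, the log2 changes at 30 µg/kg were 0.94 for Cck, 1.02 for Tph1, 0.73 for Sct, 0.70 for Chgb and 0.67 for Gcg, all still called. In the contrast of 30 with 10 µg/kg, Nts alone stayed called (0.93), with Sct at 0.45 (adjusted p = 0.057, edgeR) and Cck at 0.47 (adjusted p = 0.149, edgeR).

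**Figure D3:**
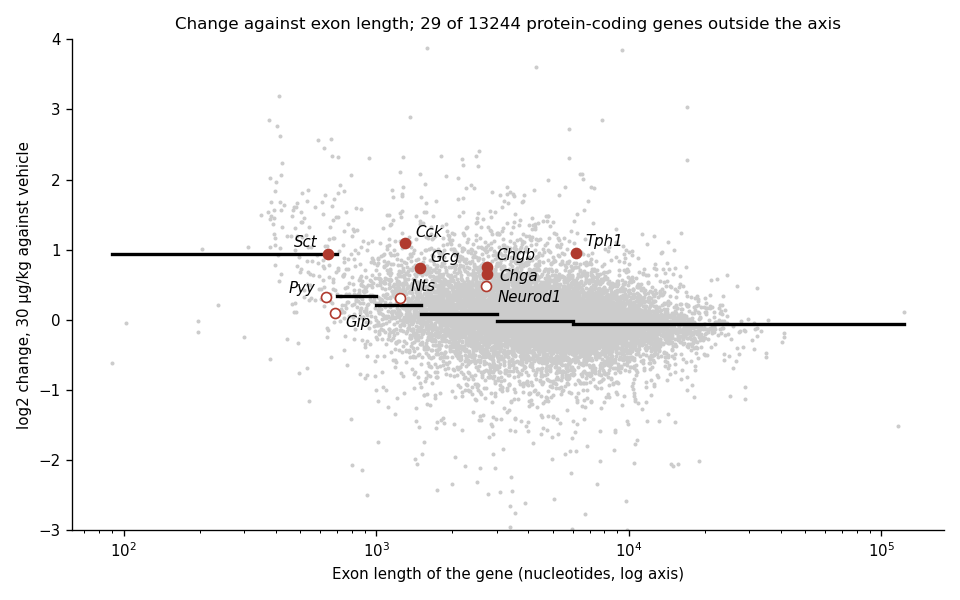
Log2 change between 30 µg/kg TCDD and vehicle (vertical axis) against exon length in nucleotides (log axis) for 13244 protein-coding genes in grey, 29 of which lie outside the axis. Black lines are medians of 6 length classes, and red points are the 10 hormone and granin genes, filled where called. Short genes sit higher, and Cck, Gcg, Chgb, Chga, Tph1, Neurod1 and Nts lie above the line of their class.

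The libraries of 30 µg/kg also differed in how reads were assigned, with 25.0% to 25.4% of entries in no gene against 28.0% to 30.1% in the other groups, and 36.3% to 38.8% not uniquely aligned against 31.4% to 34.6%. The part of these differences in the members' levels was not tested.

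Transcription factors of the enteroendocrine lineage were listed next. Of 19 tested of 20 on the list, 1 was called higher at 30 µg/kg (3.08% of all genes) and in the trend (2.53%), and none lower. This was Insm1, a zinc finger factor of endocrine differentiation, at 1.92, 2.31 and 2.00 CPM in vehicle and 3.32, 3.64 and 5.09 CPM at 30 µg/kg, without overlap (log2 change 0.95 ± 0.22, adjusted p = 0.026, edgeR). At 3 and 10 µg/kg it lay between 1.81 and 2.94 CPM. Neurog3, the factor that commits progenitors to the lineage, was chosen after its values were seen. It had 4 to 12 counts per vehicle library and 13 to 27 at 30 µg/kg, and its log2 change of 1.48 ± 0.49 did not pass the test (adjusted p = 0.101, edgeR). The median log2 change of the list at 30 µg/kg was 0.30, beside -0.02 for all genes. Pax6 (-0.50 ± 0.20) and Hhex (-0.35 ± 0.48) went the other way, without passing the test.

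Of 30 genes of the secretory granule and exocytosis, 27 were tested. The members Chga and Chgb were the ones called at 30 µg/kg, where 3.97% of all genes were called. Of the others, 4 are given here, chosen after their values were seen. Scamp5, a secretory carrier membrane protein, had a log2 change of -0.06 ± 0.26, Pam, which amidates peptide hormones, -0.24 ± 0.10, and the monoamine transporter gene Slc18a1 -0.50 ± 0.15, none of which passed the test. Pcsk1, a prohormone convertase, averaged 6.79 CPM in vehicle and 11.7, 11.1 and 9.42 CPM at 3, 10 and 30 µg/kg, also without passing it.

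Beside the members, 12 further gut hormone genes were listed, of which 4 were tested. Tac1, the tachykinin precursor known from enterochromaffin cells and enteric neurons, rose at 30 µg/kg from 1.52, 2.18 and 2.42 CPM to 3.52, 5.07 and 4.00 CPM (log2 change 1.02 ± 0.27, adjusted p = 0.042, edgeR) and was not called in the trend. Sst and Ghrl were added after their values were seen. Sst, the somatostatin gene of D cells, did not pass the test, with means of 12.4 CPM in vehicle and 12.3 CPM at 30 µg/kg and a log2 change of -0.02 ± 0.16. Ghrl, for ghrelin, lay at 2.13 to 3.44 CPM in vehicle and 3.67 to 6.69 CPM at 30 µg/kg without overlap, and its change of 0.84 ± 0.26 did not pass (adjusted p = 0.083, edgeR). Ppy and Gast, for pancreatic polypeptide and gastrin, had no count in any library.

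For serotonin handling, 10 of 11 genes were tested. Tph1 was the one called, at 30 µg/kg (3.97% of all genes) and in the trend (3.29%). Ddc, Slc6a4 and Maoa were added after their values were seen. Ddc, which makes serotonin from the product of Tph1, averaged 92.9 CPM in vehicle and 71.4 CPM at 30 µg/kg (log2 change -0.38 ± 0.31), and the uptake transporter Slc6a4 averaged 100.4 and 99.2 CPM (-0.02 ± 0.15). Neither passed the test, nor did Maoa, which degrades serotonin (-0.33 ± 0.26). Of the nutrient and bile acid sensors 8 of 15 were tested, and of the receptors for the members' products 3 of 15 (Glp1r, Glp2r and Htr4), and none was called in any contrast. The most abundant sensor on the list was Slc5a1, the glucose transporter of enterocytes, at means of 4733 CPM in vehicle and 4957 CPM at 30 µg/kg. The fatty acid receptor genes Ffar4 and Ffar2 came next per length, with log2 changes of 0.34 ± 0.50 and -0.09 ± 0.41.

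Paneth cell markers and part of the goblet cell markers also rose at 30 µg/kg, where 3.08% of all genes were called higher. Of 10 Paneth cell genes, 9 were called higher, among them Lyz1 (log2 change 1.76 ± 0.29) and Defa24 (1.57 ± 0.31). Their summed level was 777 to 1195 CPM in vehicle and 2446 to 3451 CPM at 30 µg/kg. Of 9 goblet cell genes, 5 were called higher, including Tff3 (0.90 ± 0.13) and Zg16 (0.85 ± 0.15), while Muc2 (0.26 ± 0.14) and Fcgbp (0.07 ± 0.16) did not pass. The trend over dose ranks called 8 of the 10 Paneth genes and 2 of the 9 goblet genes higher, beside 2.53% of all genes. The summed goblet level was 12810 to 16760 CPM in vehicle and 16500 to 17940 CPM at 30 µg/kg, with overlap. In contrast, 0 of 12 enterocyte genes were called, and their sums overlapped, at 54520 to 60720 CPM in vehicle and 49860 to 63850 CPM at 30 µg/kg, and 0 of 8 tuft cell genes and 0 of 7 stem cell genes tested were called. These changes are given without the length and GC trend removed, and the part of that trend in them was not tested. The part of these shifts in the members' values was not tested either.

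**Figure D4:**
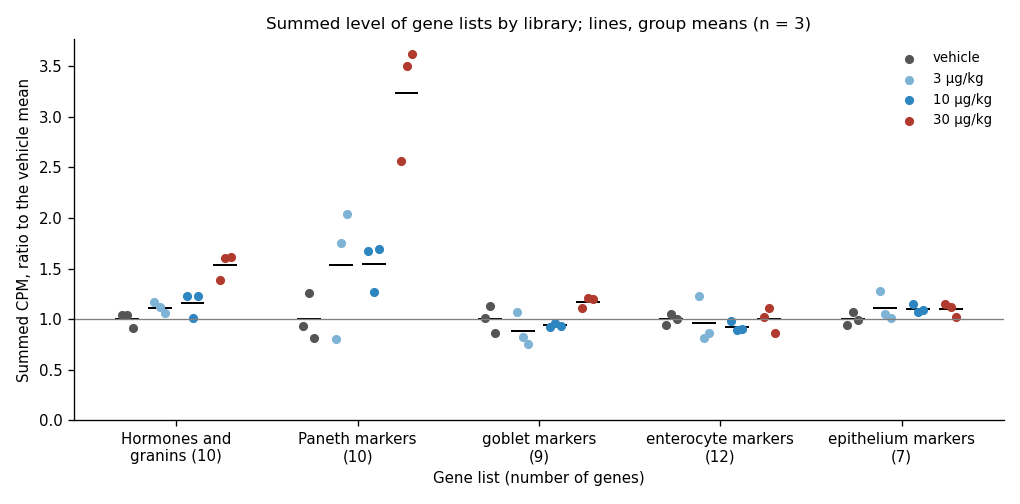
Summed CPM of gene lists in each library as a ratio to the vehicle mean (vertical axis, from 0), for the 10 hormone and granin genes and for markers of Paneth cells, goblet cells, enterocytes and epithelium. Points are libraries and lines are means of 3. At 30 µg/kg the hormone and granin sum is 1.39 to 1.62 times the vehicle mean and the Paneth sum is 2.57 to 3.62 times, and the enterocyte points of all doses spread around 1.

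Markers of other cells that use some of these genes, or of neighbouring tissue, were also counted. Of 9 pancreatic islet genes, Ins2, G6pc2 and Nkx6-1 had no count in any library and Ins1 had 2 counts in all, while Slc2a2, which enterocytes also express, made up most of the summed 337 to 1044 CPM. Of 11 pancreatic acinar genes 5 were tested, and at 30 µg/kg Ctrb1, Pnlip and Cela2a were called lower and Clps higher. Ctrb1 had 34 to 58 counts per vehicle library and 0 to 14 in the others. Clps, for colipase, made up most of the sum at 30 µg/kg, with means of 7.32 CPM in vehicle and 23.5 CPM at 30 µg/kg. The summed acinar level was 14.1 to 18.2 CPM in vehicle, 3.85 to 12.2 CPM at 3 µg/kg, 11.2 to 14.1 CPM at 10 µg/kg and 18.4 to 31.8 CPM at 30 µg/kg, the last above vehicle without overlap. Of 12 enteric neuron genes, 3 were tested (Ret, Chat and Snap25), none was called, and Elavl4 and Vip had at most 6 counts per library. The summed neuron level was 5.78 to 10.3 CPM in vehicle and 6.30 to 9.42 CPM at 30 µg/kg. Mast cells also use Tph1, and of their 9 genes Kit was called higher at 10 and 30 µg/kg, at means of 9.37 CPM in vehicle, 18.1 CPM at 10 µg/kg and 20.3 CPM at 30 µg/kg. Cpa3, the mast cell protease, had 0 counts in all 3 libraries of 30 µg/kg and at most 11 in the others. The summed mast cell level was 9.62 to 20.1 CPM in vehicle and 19.6 to 26.5 CPM at 30 µg/kg. Kit made up most of that sum, whose mean at 30 µg/kg was 22.4 CPM. The part of the acinar and mast cell genes in the members' values was not tested.

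Genes whose level followed the members most closely over the 12 libraries were sought among genes of at least 1 CPM. The mean standardised log2 CPM of the 10 members correlated with Tff3 and Tpt1 at Pearson's r = 0.97 each, with Foxa3 at 0.96 and with Rps10 and Myl12b at 0.95 each. For single members the closest genes were Foxa3 for Chga (0.95), Rpl39 for Chgb (0.96), Casz1 for Neurod1 (0.93), Colca2 for Tph1 (0.94), Agr2 for Gcg (0.96), Psmd8 for Sct (0.98) and Alas1 for Cck (0.96). They were Eid1 for Pyy (0.93) and Xab2 for Nts (0.90), and for Gip the highest were Polr2d (0.78) and Sst (0.77). These values describe 12 libraries that share the dose groups and the length trend.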

How the data were processed

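RNA was sequenced from ileal epithelial scrapings of 12 mice, 3 per dose. The authors deposited 1 count table per library, with unnormalised read counts for each Ensembl gene. The submitters' processing notes name FastQC 0.11.3, Trimmomatic 0.33, TopHat2 2.1.0, SAMtools 1.2.0, HTSeq 0.6.1 and DESeq, without roles, and the build GRCm38. The annotation release and strand setting are not given in the sources used here. Entries of reads assigned to no single gene (60.3% to 64.6%) were left out of library sizes. Symbols and exon lengths came from GENCODE M21, which matched 45229 of the 46078 genes. The unmatched genes held 0.749% of the counts.

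The filterByExpr function removed genes of low counts, libraries were scaled with TMM, and 1 quasi-likelihood model of 4 groups was fitted in edgeR 4.0.16 (R 4.3.3). Each dose was compared with vehicle, and 30 with 10 µg/kg. A trend was fitted over dose ranks 0 to 3. P-values were Benjamini-Hochberg adjusted over all genes tested. The SE of a log2 change is its size divided by the square root of the F statistic of its quasi-likelihood test. It is therefore not a measure of spread separate from that test. A call needed an adjusted p under 0.05 and a 1.5-fold change, and the fit was tested on simulated data. DESeq2 1.42.0, limma-voom 3.58.1, other scalings and filters, covariates and left-out libraries were tried. RPKM is CPM per kilobase of the gene's joined exons. A level is limited by counting error, since 3 counts equal 0.135 to 0.257 CPM and the reads carry no molecular identifiers.

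Groups came from the labelled doses. The labels give no replicate numbers, so replicates were numbered in accession order, and a batch in step with dose, if there was one, could not be separated from it. The members and the gene lists were chosen with earlier results of these data known. Named genes were all members, called genes of 6 pathway lists (up to 6 each by size of change at 30 µg/kg, otherwise up to 3 by RPKM), marker list genes by abundance, Cyp1a1, and the genes most correlated with the members. Further genes were named after their values were seen, among them those that separate other tissues or cell types.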

Additional observations from a re-analysis of the deposited data

How the results depend on the processing

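The number of members called at 30 µg/kg was 5 or 6 under every alternative tried, and in the trend 4 to 6, with 4 (Chgb, Gcg, Sct and Cck) when 30 µg/kg replicate 3 was left out. At 3 µg/kg it was 0 throughout. At 10 µg/kg it was 0 to 1 with 1 library left out, the 1 being Chgb without 10 µg/kg replicate 2. For 30 against 10 µg/kg it was 1 to 3 with 1 library left out (1, Sct, without 10 µg/kg replicate 2) and 1 (Nts) with the length and GC trend removed, and 2 (Sct and Nts) with the index tag of each library (read index) as a covariate. Chga lost its trend call without 30 µg/kg replicate 2 (0.53) or replicate 3 (0.52) and with the length and GC trend removed (0.53, below 1.5-fold). Leaving out the 10 µg/kg libraries, an alternative chosen after seeing the data, kept 0 calls at 3 µg/kg and the same 6 at 30 µg/kg and in the trend.

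Signs turned for small changes only. With the length and GC trend removed, Gip went to -0.081 at 30 µg/kg, -0.034 against 10 µg/kg and -0.16 in the trend, and Sct to 0.11 at 3 µg/kg. With at least 10 counts required in every library, Cck at 3 µg/kg went to -0.001. With 1 library left out, Gip ran from -0.012 to 0.22 at 3 µg/kg, from -0.21 to 0.069 at 10 µg/kg, from -0.034 to 0.18 at 30 µg/kg and from -0.091 to 0.074 in the trend. Cck ran from -0.059 to 0.19 and Nts from -0.21 to 0.03 at 3 µg/kg, and in the trend Pyy ran from -0.019 to 0.65 and Nts from -0.041 to 0.34. The causes were not tested.

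Calls over all genes moved more. At 3 µg/kg the 36 calls became 71 without a filter, 23 with at least 10 counts everywhere, 84 with DESeq2, 6 with the compared groups alone, 18 with read index, 18 without the 10 µg/kg libraries, and 19 to 162 with 1 library left out. At 10 µg/kg the 97 calls became 215 without a filter, 262 with DESeq2, 59 with read index, and 45 to 59 with 1 library left out. At 30 µg/kg the 628 calls became 800 with DESeq2, 482 with read index, and 433 to 655 with 1 library left out. They became 870 with a score of circadian clock genes as a covariate, where 6 members were called. That score ran from -1.88 to 2.18 in vehicle and from -0.857 to 1.62 at 30 µg/kg. The 439 calls between 30 and 10 µg/kg became 188 to 348, and the 520 trend calls 297 to 640, with 1 library left out.

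With 3 libraries per group, smaller changes of low genes such as Pyy could not be resolved. No paired analysis was possible because the labels carry no replicate numbers.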
